A study of Saccharomyces cerevisiae with 6 samples.

Results

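Most of the 36 genes described here build arginine, histidine, the aromatic amino acids and threonine in the budding yeast Saccharomyces cerevisiae, or regulate those pathways. Some act in aromatic breakdown. The rule on names that gave all 36 was chosen with earlier results of these data known. It takes every spot whose symbol in the probe-to-gene table is ARG, HIS, TRP, ARO, HOM or THR followed by a number. This gave 36 spots of 6084, and each of the 36 genes stood on 1 spot. They comprised 6 arginine enzymes, 3 arginine regulators, 7 histidine genes, 5 genes of the shikimate and chorismate trunk, 5 of the tryptophan branch, 4 of aromatic transamination and breakdown, and 5 of the aspartate family that leads to threonine. ARO5 was given no pathway.

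Each synthesis pathway turns a central metabolite into an amino acid through a chain of enzymes. Arginine is made from glutamate by way of ornithine, and histidine from a phosphorylated ribose and ATP. The aromatic amino acids share a trunk that ends at chorismate, and threonine and methionine share the route from aspartate to homoserine. In yeast most of these genes are textbook targets of Gcn4, the activator that answers amino acid starvation.

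RNA came from 3 strains, all labelled as grown without iron: Y18aft2delta (aft1aft2), Y18 (aft1) and CM3260 (wt). Aft1 and Aft2 are transcription factors for iron uptake. Outside the labels, CM3260 is described in the yeast literature as carrying mutations in TRP1, HIS3, LEU2 and GCN4. The labels give no full genotype of any strain and name the growth medium by a catalogue code only, so its amino acid content is not given in the sources used here. Each of 3 strain pairs was compared in experiments 1 and 2 on nylon membranes, which makes 6 samples.

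Values are log ratios taken as log2, turned to mutant over its reference and centred on the median of all spots in the column, so 0 is the typical spot. The base of the logarithm and the direction of the deposited ratio were not stated. The direction was taken from the order of strains in the titles and is likely only. Turned this way, 13 of 14 textbook Aft1 iron uptake genes lay below 0 in both experiments of aft1 against wt (32.5% of all spots). In aft1aft2 against wt 11 of the 14 did (30.5% of all spots). Medians of the 14 were -1.61 and -1.90 in these comparisons. FTR1 and FIT1 lay near 0 in aft1 against wt, at -0.11 and -0.10 and at -0.16 and -0.16, and were not called there. With the other direction every sign below would turn. Means are given ± SE from limma with n = 2 experiments, an SE that also draws on the spread of all spots. A gene was called at an adjusted p under 0.05 over all 6084 spots. Within an experiment the log ratios of the 3 pairs add up to within 0.01, so the 3 comparisons share 6 hybridisations and are not independent. The spots of the mutated genes gave no check of the labels. In experiments 1 and 2 of aft1aft2 against wt AFT1 stood at -0.33 and -0.86 and AFT2 at -0.40 and 1.96. In aft1 against wt AFT1 stood at 0.15 and -0.09.

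In the aft1aft2 strain 4 of the 36 genes fell against wt and none rose. They were HOM6, THR1 and HOM2 of the aspartate family and ARO8, an aromatic aminotransferase gene. Among all spots 3.71% fell and 0.723% rose in this comparison. At an unadjusted p under 0.05, 11 of the 36 were lower and 1 higher, against 12.2% and 9.24% of all spots. At least 2-fold lower in both experiments were 6 members, HOM6, THR1, HOM2, ARO8, ARO4 and ARO1, beside 4.31% of all spots. The 36 had a median of -0.29 (0.02 over all spots).

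In the aft1 strain none of the 36 passed limma's test against wt, where 0.838% of all spots rose and 0.625% fell. At an unadjusted p under 0.05, 5 members were higher (8.07% of all spots) and 3 lower (7.36%). The median of the 36 was -0.06, with 14 below 0 in both experiments (32.5% of all spots). Between the mutants ARO8 alone was called, lower in aft1aft2, in a comparison where 2.6% of all spots were lower and 0.23% higher. At an unadjusted p under 0.05, 14 of the 36 were lower and 0 higher in aft1aft2 than in aft1, against 13.1% and 9.5% of all spots. In that comparison the 36 had a median of -0.49 (0.03 over all spots), and 24 were below 0 in both experiments (33.2% of all spots). In aft1aft2 against wt 20 were (30.5% of all spots).

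**Figure D1:**
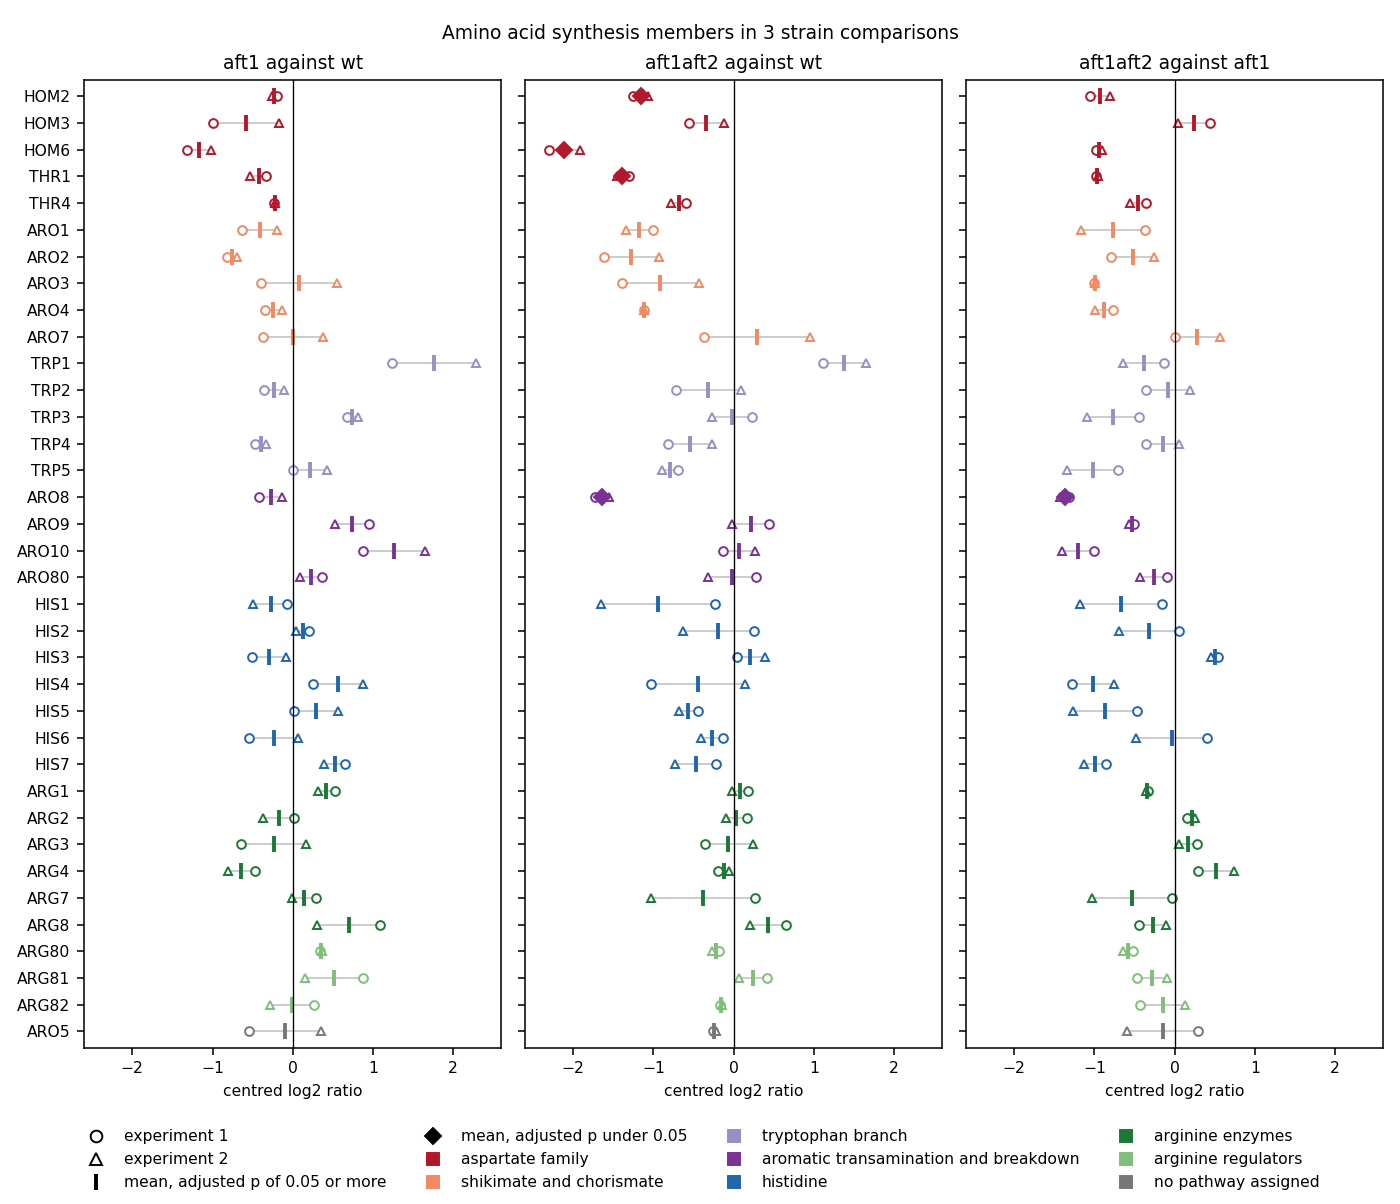
Centred log2 ratio (horizontal axis) of each of the 36 genes in the 3 strain comparisons, with experiment 1 as circles, experiment 2 as triangles and the fitted mean as a bar, or as a diamond where the adjusted p was under 0.05. The 5 diamonds are HOM2, HOM6, THR1 and ARO8 in aft1aft2 against wt and ARO8 in aft1aft2 against aft1.

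In the aspartate family all 5 genes lay below 0 in both experiments in aft1aft2 against wt, and 3 of them fell. The sizes differed, with means from -2.11 to -0.34. HOM6 encodes homoserine dehydrogenase, which makes the homoserine that threonine and methionine synthesis share. It stood at -2.30 and -1.92 in experiments 1 and 2 of aft1aft2 against wt, a mean of -2.11 ± 0.24 or 4.32-fold lower (limma adjusted p = 0.0123). No other of the 36 genes lay lower in any comparison. In aft1 against wt HOM6 was -1.32 and -1.02, which did not pass (mean -1.17 ± 0.24, adjusted p = 0.0807). In aft1aft2 against aft1 it was -0.98 and -0.91 (mean -0.94 ± 0.24, adjusted p = 0.0999). The aft1 level thus lay between those of aft1aft2 and wt in both experiments.

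THR1 encodes homoserine kinase, the step that commits homoserine to threonine. It stood at -1.31 and -1.46 in aft1aft2 against wt, a mean of -1.39 ± 0.23 or 2.61-fold lower (adjusted p = 0.0325). In aft1 against wt it was -0.33 and -0.53 (mean -0.43 ± 0.23, adjusted p = 0.427). HOM2 encodes aspartate semialdehyde dehydrogenase, one step before HOM6. It stood at -1.25 and -1.07 in aft1aft2 against wt (mean -1.16 ± 0.23, adjusted p = 0.0497) and at -0.20 and -0.26 in aft1 against wt (mean -0.23 ± 0.23, adjusted p = 0.697). Between the mutants THR1 was -0.96 ± 0.23 and HOM2 -0.93 ± 0.23, neither past the test (adjusted p = 0.0893 and 0.0959). For these 3 genes the levels in aft1aft2 lay below those of aft1 and wt in both experiments.

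The other 2 genes of the family were not called in any comparison. THR4, whose product threonine synthase carries out the last step, stood at -0.59 and -0.78 in aft1aft2 against wt (mean -0.68 ± 0.23, adjusted p = 0.164). HOM3, for aspartate kinase at the head of the route, was -0.56 and -0.12 (mean -0.34 ± 0.28, adjusted p = 0.517). HOM3 was the only one of the 5 with a mean above 0 between the mutants, at 0.24 ± 0.28. As a group the 5 had a median of -0.43 in aft1 and -1.16 in aft1aft2, each against wt, and of -0.93 between the mutants.

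Of the 4 calls against wt only HOM6 held whichever hybridisation was left out, with adjusted p from 0.0183 to 0.0357. Without replicate 1 of aft1aft2 ARO8 and THR1 passed and HOM2 did not (adjusted p = 0.033, 0.0389 and 0.0679). Leaving out any of the other 5 put all 3 above the threshold, up to 0.0691 for ARO8, 0.129 for THR1 and 0.171 for HOM2. Fitting each comparison alone ended the calls of THR1 and HOM2 (0.0619 and 0.108), and HOM2 was also lost with columns scaled, quantile normalised levels and a robust prior (0.0587, 0.0694 and 0.0519). With the values as deposited, not centred, all 4 lost their call (adjusted p = 0.0633 for HOM6, 0.0702 for ARO8, 0.08 for THR1 and 0.135 for HOM2) and stayed below 0, from -0.64 for HOM2 to -1.60 for HOM6.

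**Figure D2:**
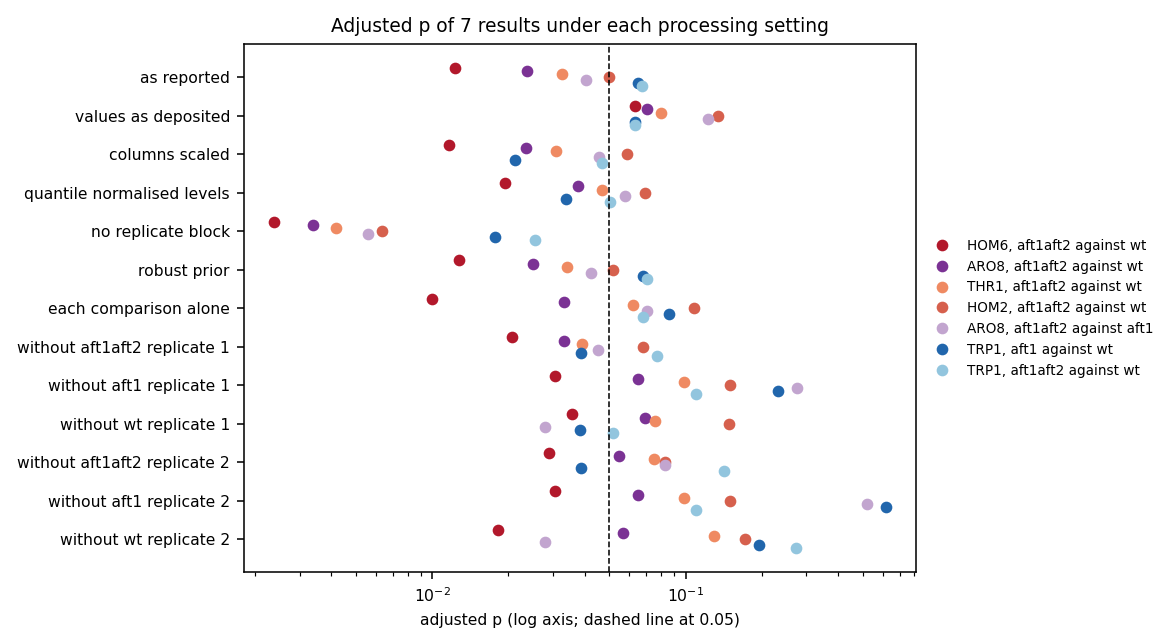
Adjusted p (horizontal log axis, dashed line at 0.05) of 7 results under the reported fit and 12 other settings; each point is 1 result in 1 setting. HOM6 in aft1aft2 against wt stays left of the line in all of them except the values as deposited, where it has 0.0633.

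The trunk from central metabolism to chorismate lay low in aft1aft2 without a call. ARO3 and ARO4 encode the isozymes of DAHP synthase, the entry step, inhibited by phenylalanine and by tyrosine. ARO4 stood at -1.12 and -1.12 in aft1aft2 against wt (mean -1.12 ± 0.23, adjusted p = 0.0544, 95% interval -1.68 to -0.56). ARO3 stood at -1.39 and -0.44 there (mean -0.91 ± 0.31, adjusted p = 0.170). Between the mutants ARO3 was at -1.0 and -0.99 and ARO4 at -0.77 and -0.99, both genes below 0 in both experiments and neither past the test (adjusted p = 0.149 and 0.109). In aft1 against wt ARO3 was -0.39 and 0.55, of opposite sign, and ARO4 -0.35 and -0.14.

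ARO1 encodes the enzyme with 5 activities that carries the middle of the trunk, and ARO2 chorismate synthase at its end. ARO2 stood at -1.61 and -0.94 in aft1aft2 against wt (mean -1.28 ± 0.27, adjusted p = 0.0561) and was the lowest of this group in aft1 against wt too, at -0.82 and -0.70 (mean -0.76 ± 0.27, adjusted p = 0.255). ARO1 stood at -1.0 and -1.35 in aft1aft2 against wt (mean -1.18 ± 0.28, adjusted p = 0.0762). ARO7, for the chorismate mutase that leads on to phenylalanine and tyrosine, stood at -0.37 and 0.96 there, of opposite sign. These 5 genes had medians of -0.24, -1.12 and -0.76 in the 3 comparisons, aft1 against wt first and the mutants against each other last. The adjusted p-values of ARO4 and ARO2, just above 0.05, do not show that these genes were unchanged.

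In the tryptophan branch, past chorismate, TRP1 encodes phosphoribosylanthranilate isomerase and is a common selection marker in laboratory strains. It stood at 1.24 and 2.28 in aft1 against wt and at 1.11 and 1.66 in aft1aft2 against wt, the highest of the 36 in both comparisons. Its means were 1.76 ± 0.31 and 1.38 ± 0.31, neither past the test (adjusted p = 0.0648 and 0.0672). Between the mutants TRP1 was -0.13 and -0.64. Both mutants thus lay above wt in both experiments. With columns scaled both values passed (adjusted p = 0.0211 and 0.0466). The aft1 value also passed with quantile normalised levels (0.0337) and without replicate 1 of wt or either aft1aft2 hybridisation (0.0382 to 0.0386). A marker carried by the strains and a change of the pathway cannot be told apart on this spot.

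TRP5, for tryptophan synthase, had the lowest mean of the branch in both aft1aft2 comparisons. It stood at -0.69 and -0.90 against wt (mean -0.80 ± 0.26, adjusted p = 0.157) and at -0.70 and -1.34 against aft1 (mean -1.02 ± 0.26, adjusted p = 0.101). TRP3, whose product joins that of TRP2 in anthranilate synthase, stood at 0.67 and 0.81 in aft1 against wt (mean 0.74 ± 0.26, adjusted p = 0.259) and near 0 in aft1aft2 against wt (0.23 and -0.27). The means of TRP2 and TRP4 lay between -0.55 and -0.08 in all 3 comparisons, and their single experiments between -0.82 and 0.19. The branch had a median of 0.22 in aft1 and -0.32 in aft1aft2, each set against wt, and of -0.38 between the mutants. The aft1 median was -0.05 without replicate 2 of aft1. Without TRP1 the medians were -0.01 for aft1 and -0.43 for aft1aft2, each set against wt, and of -0.46 between the mutants.

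**Figure D3:**
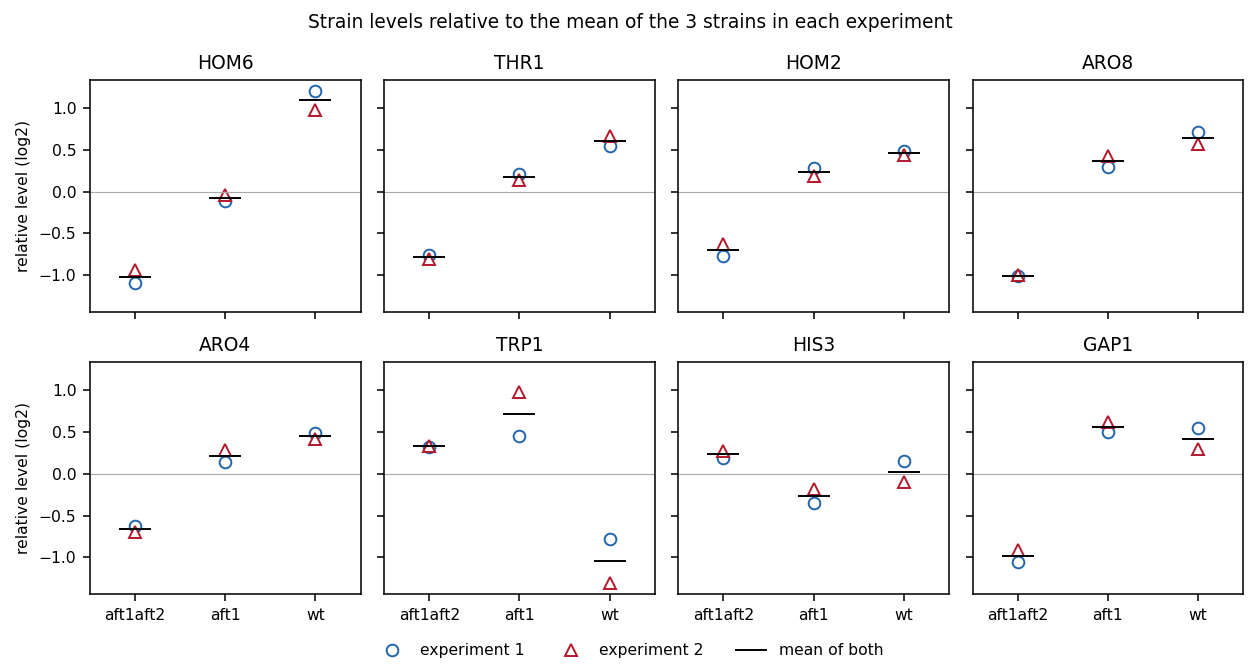
Relative level (vertical axis, log2) of 8 genes in aft1aft2, aft1 and wt, as difference from the mean of the 3 strains in the same experiment; circles are experiment 1, triangles experiment 2 and bars the mean of both. For HOM6, THR1, HOM2, ARO8, ARO4 and GAP1 both aft1aft2 points lie below those of aft1 and wt, while for TRP1 both wt points lie below those of the mutants.

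ARO8 differed between the mutants. It encodes aromatic aminotransferase I, which makes phenylalanine and tyrosine and can also act in their breakdown. It stood at -1.73 and -1.56 in aft1aft2 against wt, a mean of -1.64 ± 0.23 or 3.13-fold lower (adjusted p = 0.0238). Against aft1 it was -1.31 and -1.43 in aft1aft2, a mean of -1.37 ± 0.23 or 2.58-fold lower (adjusted p = 0.0406). In aft1 against wt it was -0.42 and -0.14 (mean -0.28 ± 0.23, adjusted p = 0.632). Between the mutants the ARO8 call was lost without either aft1 hybridisation (adjusted p = 0.276 and 0.522), without replicate 2 of aft1aft2 (0.0833), with the values as deposited (0.123), with quantile normalised levels (0.0578) and with the comparison fitted alone (0.0703).

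In aft1aft2 against wt the genes of aromatic breakdown did not lie low with ARO8. The 4 genes of the group, ARO8 included, all lay below 0 in both experiments between the mutants (33.2% of all spots). Their median there was -0.865. ARO10, for a decarboxylase of phenylpyruvate, stood at 0.87 and 1.65 in aft1 against wt (mean 1.26 ± 0.28, adjusted p = 0.094). It was at -0.13 and 0.27 in aft1aft2 against wt and at -1.0 and -1.40 between the mutants (mean -1.20 ± 0.28, adjusted p = 0.0824). ARO9, for aromatic aminotransferase II, stood at 0.95 and 0.53 in aft1 against wt (mean 0.74 ± 0.25, adjusted p = 0.225) and at 0.44 and -0.02 in aft1aft2 against wt. ARO9 in aft1aft2 against aft1 was -0.50 and -0.57 (mean -0.53 ± 0.25, adjusted p = 0.269). In yeast both genes are induced by aromatic amino acids through the activator Aro80. The means of the ARO80 spot lay between -0.26 and 0.23 in the 3 comparisons, with single experiments between -0.43 and 0.36, and it was not called.

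No histidine gene was called in any comparison. HIS1 encodes ATP phosphoribosyltransferase, the entry step. It stood at -0.23 and -1.66 in aft1aft2 against wt (mean -0.95 ± 0.37, adjusted p = 0.216), with the largest SE of the 36. HIS4, for an enzyme of several steps, stood at -1.03 and 0.15 there, of opposite sign (mean -0.45 ± 0.33, adjusted p = 0.463). Between the mutants HIS4 was -1.28 and -0.75 (mean -1.01 ± 0.33, adjusted p = 0.153), HIS7 -0.86 and -1.13 (mean -0.99 ± 0.25, adjusted p = 0.0963) and HIS5 -0.47 and -1.26 (mean -0.86 ± 0.28, adjusted p = 0.154). HIS7 encodes the glutamine amidotransferase step and HIS5 histidinol-phosphate aminotransferase.

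HIS3, for imidazoleglycerol-phosphate dehydratase, is another common marker gene. It stood at 0.54 and 0.45 in aft1aft2 against aft1, a mean of 0.50 ± 0.24 (adjusted p = 0.287), and was the only histidine gene with a mean above 0 there. It was 0.04 and 0.39 in aft1aft2 against wt and -0.51 and -0.08 in aft1 against wt, so unlike TRP1 it was not above wt in both mutants. The 7 genes had a median of 0.12 in aft1 and -0.45 in aft1aft2, each against wt, and of -0.67 between the mutants. Without HIS3 these were 0.21, -0.46 and -0.76. Without replicate 2 of aft1aft2 the medians of all 7 were -0.28 in aft1aft2 against wt and -0.0563 between the mutants, and with values as deposited -0.415 between the mutants. The aft1 median was -0.10 without replicate 1 of wt and -0.0458 without replicate 2 of aft1. HIS7 and ARO4 are next to each other in the R64 gene table. In aft1aft2 against wt HIS7 was at -0.22 and -0.73 where ARO4 was at -1.12 in both, and in aft1 against wt HIS7 was at 0.65 and 0.39 where ARO4 was at -0.35 and -0.14.

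The arginine enzymes lay on both sides of 0. Their median was -0.02 in both mutants against wt and -0.05 between the mutants, and none was called. In aft1aft2 against wt they ran from ARG7 at -0.39 ± 0.35 to ARG8 at 0.43 ± 0.28, and their 95% intervals together reached from -1.24 to 1.09. ARG7 encodes ornithine acetyltransferase and stood at 0.26 and -1.03 there, of opposite sign. ARG8, for acetylornithine aminotransferase, was the highest in aft1 against wt at 1.09 and 0.30 (mean 0.70 ± 0.28, adjusted p = 0.307). ARG4, for argininosuccinate lyase at the end of the route, was the lowest there at -0.47 and -0.81 (mean -0.64 ± 0.25, adjusted p = 0.292). The means of ARG1, ARG2 and ARG3 lay between -0.34 and 0.42 in all 3 comparisons, and their single experiments between -0.64 and 0.52.

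The regulators of arginine metabolism were not called either. Arg80 and Arg81 bind DNA together with Mcm1 and repress arginine synthesis genes when arginine is plentiful, and Arg82 is an inositol phosphate kinase that supports that complex. ARG80 stood at -0.52 and -0.64 in aft1aft2 against aft1 (mean -0.58 ± 0.23, adjusted p = 0.209). It stood at 0.34 and 0.36 in aft1 against wt and at -0.18 and -0.27 in aft1aft2 against wt. ARG81 was 0.88 and 0.15 in aft1 against wt (mean 0.52 ± 0.27, adjusted p = 0.409). The means of ARG82 lay between -0.16 and -0.01 in the 3 comparisons, and its single experiments between -0.43 and 0.26. ARO5, listed in the R64 gene table as YGL117W, had means between -0.25 and -0.10 and single experiments between -0.59 and 0.35.

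**Figure D4:**
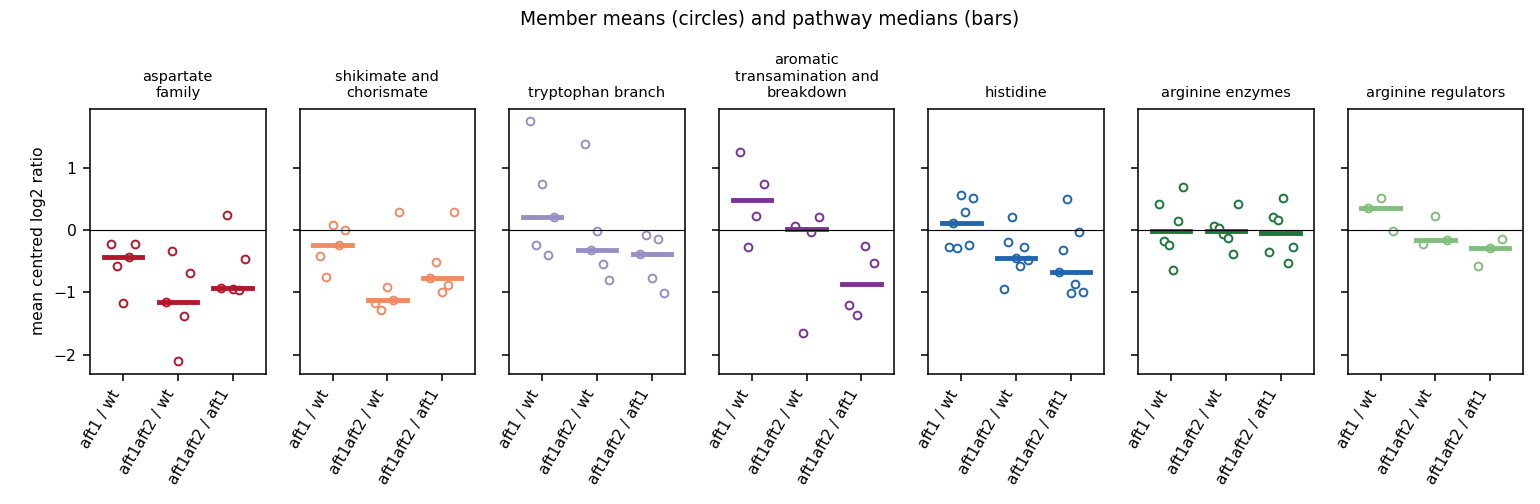
Mean centred log2 ratio (vertical axis) of each member (circles) in the 3 comparisons, by pathway, with the pathway's median as a bar. In aft1aft2 against wt the medians are lowest for the aspartate family at -1.16 and the shikimate and chorismate genes at -1.12, and the arginine enzymes are at -0.02.

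Set side by side in aft1aft2 against wt, the medians were -1.16 for the aspartate family, -1.12 for the shikimate and chorismate genes, -0.45 for histidine, -0.32 for the tryptophan branch, -0.16 for the arginine regulators, -0.02 for the arginine enzymes and 0.02 for aromatic transamination and breakdown. In the last group ARO8, with a mean of -1.64, stood apart from ARO9, ARO10 and ARO80, whose means lay between -0.03 and 0.21. The aspartate family was at -0.43 and aromatic transamination and breakdown at 0.49 in aft1 against wt. The order of neighbouring medians changed when single hybridisations were left out: without replicate 2 of wt the shikimate and chorismate genes and the aspartate family stood at -1.20 and -1.19 in aft1aft2 against wt. Differences between pathways were not tested, since members of a pathway are not replicates of a strain.

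Other genes of the same pathways were read from a list, and 22 of them are described here. The list holds other arginine genes, the TYR1 and PHA2 genes of tyrosine and phenylalanine synthesis, genes that use or break down threonine, amino acid permeases and regulators. Their median was 0.05 in aft1 and 0.03 in aft1aft2, each against wt, and -0.07 between the mutants. Of the 22, 1 fell in aft1aft2 against wt and none rose, near the shares over all spots of 3.71% and 0.723%. At an unadjusted p under 0.05, 2 were lower and 0 higher there (12.2% and 9.24% of all spots). For aft1 over wt 0 were called by limma (0.838% of all spots rose and 0.625% fell), and 2 were higher and 0 lower before adjustment (8.07% and 7.36%). Between the mutants 2 were lower and 2 higher before adjustment (13.1% and 9.5%). The gene that fell was GAP1, the general amino acid permease gene, at -1.61 and -1.20 (mean -1.40 ± 0.24, 2.65-fold lower, adjusted p = 0.0358). GAP1, the only one of the 22 called between the mutants, was also lower in aft1aft2 than in aft1, at -1.56 and -1.53 (mean -1.54 ± 0.24, adjusted p = 0.033), while in aft1 against wt it was -0.05 and 0.32. Both GAP1 calls were lost with the values as deposited (adjusted p = 0.0865 against wt and 0.114 against aft1) and with each comparison fitted alone (0.0619 and 0.0511), and the call against wt also with quantile normalised levels (0.0548). Leaving out any hybridisation but replicate 1 of aft1aft2 also ended the call against wt, up to an adjusted p of 0.126. Between the mutants the call was lost without either aft1 hybridisation or without replicate 2 of aft1aft2 (up to 0.45).

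GCN4, for the activator itself, stood at -1.21 and -0.42 in aft1aft2 against wt (mean -0.81 ± 0.28, adjusted p = 0.172) and at -0.38 and -0.25 in aft1 against wt (mean -0.31 ± 0.28, adjusted p = 0.656). Its spot reads transcript and not Gcn4 protein, whose amount in yeast is set mainly by translation. The wt strain is described in the literature, outside the labels, as carrying a mutation in GCN4. Whether the mutant strains share it is not given in the sources used here. Whether any of the strains made working Gcn4 is therefore not known. The part of a lower GCN4 value in the lower values of its textbook targets was not tested.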

How the data were processed

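Per the labels, total RNA was taken by hot phenol from exponentially growing cells, 5 µg was reverse-transcribed and hybridised to GeneFilters membranes, and the signal was collected by phosphor screen over 3 days and measured in PATHWAYS 3. The deposited values are log ratios, 1 for each spot in each sample, used here as log2. How the authors normalised membranes or filtered spots, their log base and their genome build is not given in the sources used here. Spot intensities were not used here, so signal over background is unknown.

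The table held 6084 spots with 0 missing values. Symbols came from the platform's probe-to-gene table, which named 5523 spots with 1 gene; all 36 members matched the R64 gene table, and updated symbols gave the same 36. The members and lists were chosen with earlier results of these data known.

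Columns were turned to mutant over reference and centred on their medians. Those medians (experiments 1 and 2) were 0.31 and 0.22 for aft1 over wt, 0.40 and 0.625 for aft1aft2 over wt, and 0.09 and 0.42 for aft1aft2 over aft1. Strain levels were solved from the 3 ratios of an experiment by least squares. A model of strain plus experiment was fitted over all spots (limma 3.58.1, R 4.3.3) with 2 residual and 4.25 prior degrees of freedom. Tests were two-sided with Benjamini-Hochberg adjustment, and the code was first tested on simulated data. Experiments pair the strains because each deposited ratio was formed within an experiment. Whether the experiments were separate cultures is not stated, so the p-values reflect only how far these samples differ, which may be technical.

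Genes given with values were those past the test in any comparison, the largest change of each pathway and comparison, TRP1, HIS3, ARO3, ARO4 and GCN4. Other members named with values were added to show the range of their pathway, after the values were seen. Alternatives were values not centred, columns scaled, levels quantile normalised, a robust prior, each comparison fitted alone, no experiment term, and each hybridisation or experiment left out. Sequences were not used here.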

Additional observations from a re-analysis of the deposited data

Results flagged for a closer look

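ARO8 and GAP1 are given here because the difference from wt was not the same in the 2 mutants by the direct test between them. ARO8 was -1.37 ± 0.23 in aft1aft2 against aft1, below 0 in both experiments (limma adjusted p = 0.0406). GAP1 was -1.54 ± 0.24 in the same comparison, below 0 in both experiments (adjusted p = 0.033). Both mutants were compared with the same wt hybridisations. No group had the 4 samples needed to look for a sample far from the others.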

How the results depend on the processing

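The limits are 2 experiments, 6 hybridisations and 2 residual degrees of freedom. With the values as deposited 0, 0 and 0 members and 58, 72 and 52 of all spots were called in the comparisons of aft1 with wt, aft1aft2 with wt and aft1aft2 with aft1. In that setting every value moves up by its column's median, and those medians differ between experiments. The pathway medians were then, in the same order of comparisons, 0.245, 0.50 and 0.20 for the arginine enzymes, 0.02, -0.605 and -0.51 for the shikimate and chorismate genes, 0.75, 0.53 and -0.61 for aromatic transamination and breakdown and -0.16, -0.64 and -0.68 for the aspartate family. For aft1 and aft1aft2 against wt they were 0.615 and 0.355 for the arginine regulators and 0.385 and 0.07 for histidine, and the tryptophan branch had 0.20 in aft1aft2 against wt and -0.13 between the mutants.

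With columns scaled 2 members (TRP1 and ARO10) and 217 spots were called in aft1 against wt. Quantile normalised levels gave 1 member (TRP1) and 114 spots there, and 0 members and 138 spots between the mutants. The aspartate family then had a median of -0.75 between the mutants. Each comparison fitted alone gave 2 and 0 members in the aft1aft2 comparisons against wt and aft1, and 44, 157 and 112 spots. Without the experiment term (no replicate block) 3, 10 and 9 members and 590, 940 and 950 spots were called. Those 3 members in aft1 against wt were TRP1 and ARO10, higher, and HOM6, lower. The levels carry no experiment mean by construction, so the fit without the experiment term counts 1 residual degree of freedom too many. Without HIS3 the histidine median in aft1 against wt was 0.21. Leaving out HIS3 and leaving out TRP1 were chosen after seeing the data.

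Leaving out 1 hybridisation gave 0 to 2, 1 to 5 and 0 to 1 members and 4 to 233, 75 to 559 and 13 to 503 spots. The highest counts of spots came without replicate 1 of aft1aft2 (in aft1 against wt equally without replicate 2), and the lowest without an aft1 replicate. The lone sample left in a strain is then assumed to vary like the others. Leaving out a whole experiment gives values with no test. With 1 hybridisation or experiment left out, medians in aft1 against wt ranged from -0.0675 to 0.25 for the arginine enzymes, 0.15 to 0.37 for the arginine regulators, -0.10 to 0.27 for histidine, -0.0483 to 0.49 for the tryptophan branch, -0.43 to -0.11 for shikimate and chorismate, 0.27 to 0.70 for aromatic transamination and breakdown and -0.43 to -0.26 for the aspartate family. In aft1aft2 against wt they ranged from -0.0775 to 0.175 for the arginine enzymes, -0.24 to -0.0138 for the arginine regulators, -0.635 to -0.22 for histidine, -1.20 to -0.94 for shikimate and chorismate, -0.69 to -0.11 for the tryptophan branch and -0.17 to 0.14 for aromatic transamination and breakdown. Between the mutants the ranges were -0.13 to 0.065 for the arginine enzymes, -0.54 to -0.0075 for the arginine regulators, -0.82 to -0.0563 for histidine, -0.99 to -0.62 for shikimate and chorismate and -0.77 to -0.21 for the tryptophan branch. The called values kept their sign under these alternatives. In aft1 against wt, where they were not called, HOM2 was 0.03 with values as deposited, and GAP1 was -0.06 without replicate 2 of wt and -0.05 without experiment 2. The cause of the other changes was not tested.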
